A study of Mus musculus with 6 samples.

Results

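The constant genes of the T cell receptor held by the matrices were Trac, Trbc1, Trbc2 and Trdc. They were taken by symbol, and these 4 genes were present in each of the 3 matrices, 1 per liver site, out of 5301 genes in all (4486, 2669 and 2643 in the matrices of adjacent tissue, micrometastasis and macrometastasis). They were measured in 23008 CD45+ immune cells sorted from liver sections of Balb/c mice that had received 4T07 mammary tumor cells by intracardiac injection. The tumor cells carried a control vector (Ctrl) or an shRNA that lowers Tim3 (Tim3-KD), while the mice and their immune cells were not modified in either group, so the level of Tim3 in the sorted cells does not check the labels. Sections of liver free of tumor (adjacent tissue) and sections with micrometastasis date from day 3, those with macrometastasis from day 12. Each of the 6 libraries, 1 for each site and tumor line, pooled 2 mice. With 1 library per group there was no replicate and no test, and every interval below is a 95% interval that covers counting error only. Ages of the mice were not given in the sources used here.

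Each T cell receptor chain joins a variable end, which binds antigen, to a constant end that anchors the chain and pairs it with the CD3 proteins. Trac encodes the constant end of the alpha chain, Trbc1 and Trbc2 are alternative constant ends of the beta chain, and Trdc serves the delta chain of gamma-delta T cells. Trdc lies inside the alpha locus, so that joining an alpha chain removes it from that chromosome, and joining a beta chain to the segments before Trbc2 can likewise remove Trbc1. NK cells build no T cell receptor, but transcripts from unjoined constant genes are known in them.

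On GRCm38, Trbc1 lay at chr6:41538218-41539881 and Trbc2 at chr6:41546730-41548352, both on the plus strand, and Trac (chr14:54220521-54224206) and Trdc (chr14:54142851-54148868) also read on the plus strand. Each had 4 exons, and the fourth exon of Trac and of Trdc was wholly non-coding. The coding parts of Trbc1 and Trbc2 differed at 23 of 518 bases, and only 1 of these lay in the 375 bases of exon 1. The other 22 lay in exons 2 to 4, and that stretch (coding bases 376 to 518, read from the GRCm38 genome, 5′ to 3′) is shown because it is the coding sequence by which reads of the 2 genes can be told apart. Capitals mark the bases that differ.
Trbc1: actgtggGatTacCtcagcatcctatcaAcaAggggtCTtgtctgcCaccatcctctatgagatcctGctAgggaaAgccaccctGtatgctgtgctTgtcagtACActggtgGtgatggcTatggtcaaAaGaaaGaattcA
Trbc2: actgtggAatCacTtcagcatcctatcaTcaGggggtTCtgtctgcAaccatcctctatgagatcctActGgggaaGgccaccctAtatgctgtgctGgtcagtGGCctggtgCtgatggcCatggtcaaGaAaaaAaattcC
Of all 90-base windows, the length of the cDNA read, 31.3% in the Trbc1 transcript and 33.7% in the Trbc2 transcript were found unchanged in the other gene, and the last shared window ended 355 bases before the 3′ end of Trbc1 and 310 bases before that of Trbc2. The deposited tables kept UMIs (counted RNA molecules) whose reads fitted both genes under a joint name, Trbc1-Trbc2. These joint UMIs came to 3765, against 17731 UMIs of Trbc1 and 22292 of Trbc2, and they were left out of both genes. Trac had 6440 UMIs and Trdc 1098. Trdc scores had been cut at a maximum in 66 cells, so its sums and levels are lower bounds, while the share of cells with a UMI is not touched. None of the other 3 genes reached that maximum.

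Cells were clustered on 1637 genes without any T cell receptor feature, so the members had no part in the cell groups. Sub-clusters of the T and NK clusters with Cd3e, a CD3 chain, in at least 50% of cells and Ncr1, an NK receptor, in under 10% were called T-like (1808 cells). Conventional NK-like sub-clusters, with Ncr1 in at least 50% of cells and Cd3e in under 10%, held 452 cells. Of these, 87.6% had Ncr1 and 1.11% Cd3e. Another 301 cells lay in a pair of sub-clusters with both markers and are called mixed. A further 171 cells lay in sub-clusters led by B cell genes or by Kupffer cell and endothelial genes, and 20276 cells belonged to other classes. Libraries held from 542 (adjacent Tim3-KD) to 5502 cells (macrometastasis Tim3-KD), with median totals of 6300 to 10248 UMIs per cell, and any pair of libraries shared at most 11 cell barcodes. A sub-cluster or class name ends in "-like" because it rests on marker genes alone.

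Over all cells of the series, the beta genes Trbc2 (2537 cells) and Trbc1 (2140 cells) were found in more cells than Trac (1870) and Trdc (380). The beta genes differed in where they were found. In T-like cells Trbc2 had a UMI in 95.3% of cells (94.2 to 96.2%) and Trbc1 in 65.4% (63.2 to 67.6%). In NK-like cells the order was turned around, with Trbc1 in 86.9% (83.5 to 89.9%) and Trbc2 in 38.9% (34.4 to 43.6%). Trac, the alpha gene, was found in 78.9% of T-like and 9.07% of NK-like cells. Trdc, the delta gene, was found in 4.15% of T-like cells (3.28 to 5.17%) and in 40.0% of NK-like cells (35.5 to 44.7%). The median total was 5080 UMIs per cell in T-like and 3536.5 in NK-like cells, so T-like cells were read more deeply. After thinning each cell to 1500 UMIs, the shares in T-like cells were 43.7% for Trac, 50.9% for Trbc1, 77.9% for Trbc2 and 2.65% for Trdc. In NK-like cells the thinned shares were 3.10%, 64.2%, 25.2% and 21.7% for the same genes, and Trbc1 and Trdc were still the members with the higher share in NK-like cells.

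Cells of other classes gave a level to set these shares against. Free RNA, doublets and transcription in those cells were not told apart. Among all 20276 of them, with a median total of 8400.5 UMIs, Trac was found in 0.543%, Trbc1 in 0.996%, Trbc2 in 1.11% and Trdc in 0.197%. All shares in T-like and NK-like cells were above these. In adjacent Tim3-KD the other classes had more, with Trac in 2.72%, Trbc1 in 4.69%, Trbc2 in 6.17% and Trdc in 0.988% of 405 cells, and this library also had the largest share of cells in T and NK clusters (25.3%). Plasmacytoid dendritic-like cells had the largest shares of Trac (2.76%), Trbc2 (5.12%) and Trdc (1.18%) among the named other classes. Neutrophil-like cells, the most numerous class, had Trbc1 in 0.576% and Trdc in 0.248%. No Trdc UMI was found in 2407 Kupffer or macrophage-like cells, which allows a share of cells with a UMI of up to 0.125% (3 cells) and sets no limit on cells that express the gene without giving a UMI.

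**Figure D1:**
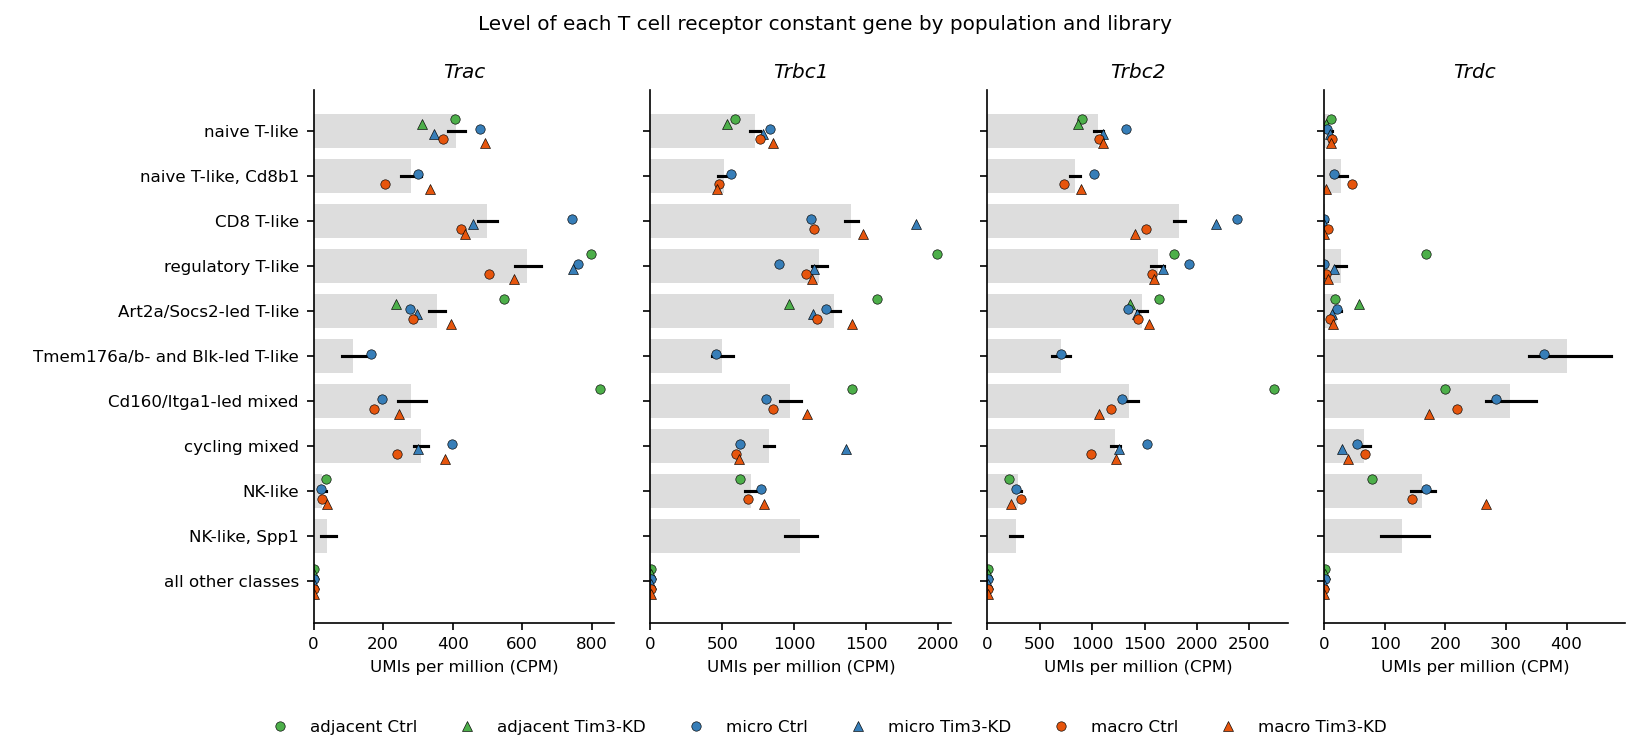
Level of Trac, Trbc1, Trbc2 and Trdc in CPM, 1 panel per gene with a linear axis from 0, by T-like, mixed and NK-like sub-cluster and for all other classes, with bars for all libraries together, black lines for their 95% counting intervals and points for single libraries with at least 20 cells. Trac and Trbc2 were low in both NK-like sub-clusters, and Trdc, whose levels are lower bounds, stood at 402 CPM in the Tmem176a/b and Blk-led sub-cluster.

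Levels are given in CPM, the UMIs of a gene per 1000000 UMIs of all genes in the same cells. Trac was at 423 CPM in T-like cells (411 to 435) and 27.9 CPM in NK-like cells (21.1 to 36.2). Trbc2 was at 1380 CPM (1358 to 1402) and 291 CPM (268 to 315), and Trbc1 at 1042 CPM (1023 to 1061) and 757 CPM (719 to 796). Trbc1 was thus the member whose level differed least between T-like and NK-like cells. Trdc was at 27.3 CPM (24.4 to 30.6) and 156 CPM (140 to 175), both lower bounds. Of all Trdc UMIs, 27.8% were in T-like, 28.6% in NK-like and 37.1% in mixed cells, whereas 73.2% of Trac UMIs were in T-like cells.

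Per library, Trac in T-like cells was at 542 CPM in adjacent Ctrl, 288 in adjacent Tim3-KD, 510 in micrometastasis Ctrl, 424 in micrometastasis Tim3-KD, 356 in macrometastasis Ctrl and 437 in macrometastasis Tim3-KD. Trbc1 in the same order was at 1258, 698, 946, 1406, 916 and 1115 CPM. Trbc2 was at 1502, 1001, 1615, 1746, 1242 and 1316 CPM. Adjacent Tim3-KD, with 108 T-like cells, was the lowest library for each of these 3 genes. In NK-like cells Trbc1 was at 726, 425, 824, 935, 710 and 786 CPM and Trbc2 at 221, 515, 304, 209, 306 and 219 CPM in the same order. Adjacent Tim3-KD, which held only 11 NK-like cells, was the single library in which Trbc2 exceeded Trbc1 there. Every library had more Trac and Trbc2 in T-like than in NK-like cells, and the Trdc levels were higher in NK-like than in T-like cells. These Trdc levels are lower bounds, and in adjacent liver their order is not secure, since the NK-like sums were 15 and 12 UMIs with no cell at the maximum score and 1 T-like cell per library was at it.

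With all libraries together, Trac was highest among T-like sub-clusters in regulatory T-like cells and both beta genes were highest in CD8 T-like cells, and all 3 were lowest in the naive T-like cells with Cd8b1 and in a small sub-cluster led by Tmem176a, Tmem176b and Blk. Regulatory T-like cells (264 cells, led by Tnfrsf4, Ctla4 and Ikzf2) had Trac at 615 CPM (579 to 654). CD8 T-like cells (359 cells), the cytotoxic T cell class, had Trbc1 at 1397 CPM (1351 to 1443) and Trbc2 at 1830 CPM (1777 to 1883). A sub-cluster of 456 cells led by Art2a, Socs2 and Ckb, which took no subset name, had Trac at 355 CPM, Trbc1 at 1275 CPM and Trbc2 at 1477 CPM. Naive T-like cells (434 cells, led by Lef1, Tcf7 and Ccr7) had Trac at 410, Trbc1 at 728 and Trbc2 at 1060 CPM. The naive T-like cells with Cd8b1 (230 cells) had Trac at 279, Trbc1 at 509 and Trbc2 at 839 CPM. Libraries within a sub-cluster spread more widely than the counting intervals, and among libraries with at least 20 cells these orders turned in single ones. Trbc1 was at 1223 and 1155 CPM in the Art2a and Socs2-led cells of micrometastasis and macrometastasis Ctrl, above the CD8 T-like cells there (1116 and 1139 CPM), and below them with Tim3-KD (1130 and 1402 against 1846 and 1476 CPM). Trbc2 was higher in regulatory than in CD8 T-like cells of macrometastasis, at 1573 and 1512 CPM in Ctrl and 1592 and 1408 CPM in Tim3-KD. Trac in adjacent Ctrl was at 548 CPM in the Art2a and Socs2-led and 408 CPM in the naive T-like cells, and in macrometastasis Tim3-KD at 494 CPM in naive and 435 CPM in CD8 T-like cells.

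Trbc2 was close to universal in these T-like sub-clusters. It had a UMI in 355 of 359 CD8 T-like cells, in 97.0% of regulatory, 96.7% of Art2a and Socs2-led, 95.9% of naive and 88.7% of naive T-like cells with Cd8b1. Trbc1 was found in 73.5%, 64.8%, 65.8%, 64.3% and 57.0% of the same sub-clusters. Trdc was in 2 of 359 CD8 T-like cells (0.557%) and in 1.89 to 3.91% of the cells of the other 4. In regulatory T-like cells 40 of its 46 UMIs came from 2 cells of adjacent Ctrl.

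The Tmem176a, Tmem176b and Blk-led sub-cluster, 65 cells, stood apart from the other T-like cells in its delta gene. Trdc had a UMI in 53.8% of its cells (41.0 to 66.3%) and a level of at least 402 CPM (338 to 473). Trac was found in only 24.6% (14.8 to 36.9%), Trbc1 in 58.5% and Trbc2 in 78.5%, and Trac stood at 113 CPM (80.8 to 154). CD3 chains were present but not in all cells, with Cd3e in 56.9% and Cd3g in 67.7%, Ncr1 was in 1.54%, and Cd5, Cd8a and Gzma had no UMI in any of the 65 cells. Its cells came from all 6 libraries, 2 and 8 from adjacent liver, 24 and 3 from micrometastasis and 15 and 13 from macrometastasis (Ctrl and Tim3-KD).

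Cd3e was in 59.5% and Ncr1 in 45.8% of mixed cells, and these shares do not say that single cells had both. With receptor features used for clustering, a cycling sub-cluster of 110 cells had Cd3e in 89.1% and Ncr1 in 6.36%, and so counted as T-like. Cells with a doublet score over 0.15, computed on the deposited cells, were 19.3 to 26.4% of mixed cells in the 4 metastatic libraries and 10.3% and 0% in adjacent Ctrl and Tim3-KD, against 0 to 4.79% of T-like cells and 1.21 to 27.3% of NK-like cells per library. Their part in the mixed values was not tested. The sub-cluster led by Cd160, Itga1 and Xcl1 (144 cells, Cd3e in 53.5% and Ncr1 in 60.4%) had Trbc2 in 86.8%, Trbc1 in 81.9%, Trac in 39.6% and Trdc in 29.2% of cells, with Trdc at no less than 306 CPM. The cycling sub-cluster (157 cells, led by Ube2c and Birc5) had Trac in 68.8%, Trbc1 in 84.7%, Trbc2 in 83.4% and Trdc in 22.3%, at a median total of 14917 UMIs per cell. NK-like cells fell into 2 sub-clusters with like values of Trdc, 40.1% of 406 cells and 39.1% of 46 cells led by Spp1 and Klra7. The latter had Trbc1 in all 46 cells, at 1043 CPM (938 to 1157), against 698 CPM (658 to 739) in the former.

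**Figure D2:**
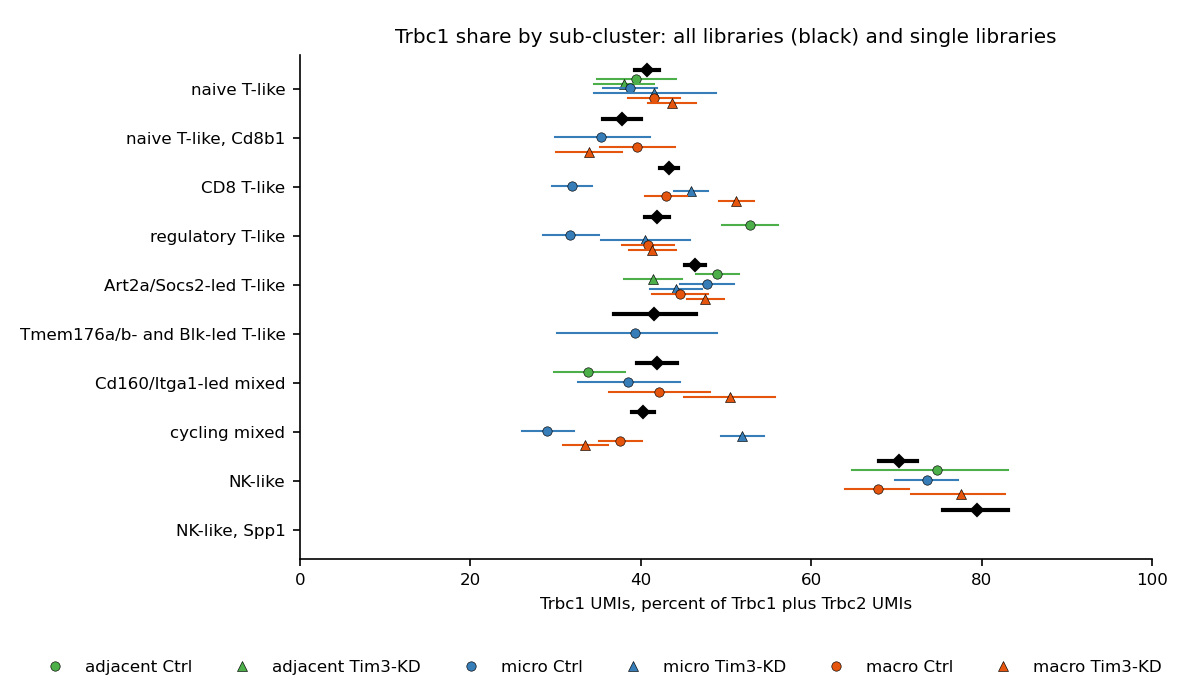
Trbc1 UMIs as a percent of Trbc1 plus Trbc2 UMIs, by sub-cluster, for all libraries together (black diamonds) and for single libraries (circles Ctrl, triangles Tim3-KD), with 95% intervals. The T-like and mixed sub-clusters lay between 37.8% and 46.3% over all libraries, and the 2 NK-like ones at 70.3% and 79.5%.

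The balance of the beta genes differed between T-like and NK-like cells. Since the genes are of unequal length, their ratio was compared between cell groups and not with 1. Trbc1 made up 43.0% of Trbc1 plus Trbc2 UMIs in T-like cells (42.4 to 43.6%) and 72.2% in NK-like cells (70.3 to 74.1%). In T-like cells Ctrl and Tim3-KD shares were 45.6% and 41.1% for adjacent liver, 36.9% and 44.6% for micrometastasis, and 42.5% and 45.9% for macrometastasis. NK-like cells gave 76.7% and 45.2%, 73.0% and 81.7%, and 69.9% and 78.2% in the same order of sites. Apart from the 11 NK-like cells of adjacent Tim3-KD, all NK-like values were above all T-like values. The sub-clusters with Trdc in many cells did not share the NK-like balance, at 41.6% in the Blk-led and 41.9% in the Cd160 and Itga1-led sub-cluster. Joint UMIs, which could belong to either gene, were 8.27% of all beta UMIs in T-like and 13.5% in NK-like cells, and the NK-like share would still be the higher one with all joint UMIs given to Trbc1 in T-like and to Trbc2 in NK-like cells.

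Within CD8 T-like cells the Trbc1 share differed between libraries, 31.9% in micrometastasis Ctrl (29.6 to 34.3%, 77 cells), 45.9% in micrometastasis Tim3-KD (117 cells), 43.0% in macrometastasis Ctrl (67 cells) and 51.2% in macrometastasis Tim3-KD (91 cells). Regulatory T-like cells had 31.7% in micrometastasis Ctrl and 40.5% in Tim3-KD, and cycling mixed cells 29.0% and 51.9%. In naive T-like cells the same libraries had 38.7% and 41.5%, and in the Art2a and Socs2-led cells 47.8% and 44.1%. The naive T-like cells with Cd8b1 had 35.4% and 35.7%, and the Cd160 and Itga1-led mixed cells 38.5% and 48.9%. Whether the sub-clusters differ in this was not tested. A cell gave up to 125 Trbc1 UMIs and UMIs of 1 cell are not independent, so these intervals are too narrow for a difference between animals.

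**Figure D3:**
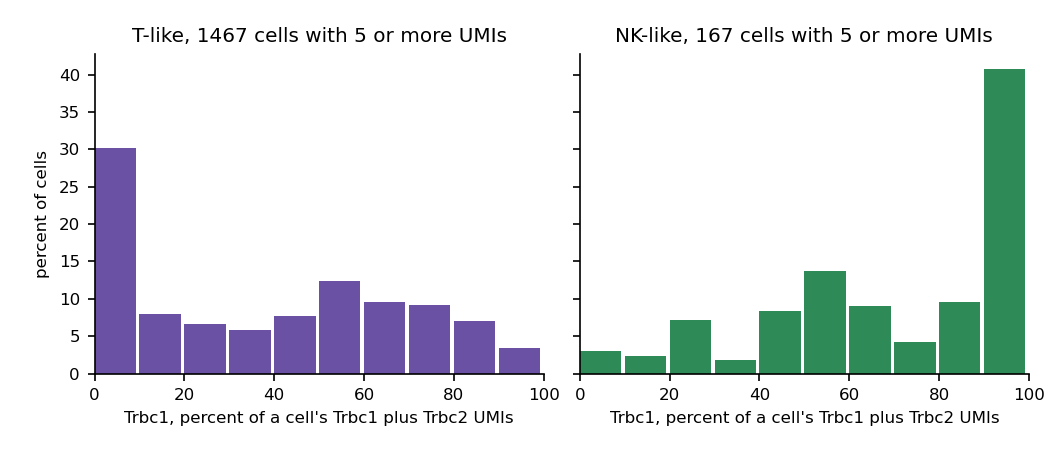
Percent of cells by the percent of their Trbc1 plus Trbc2 UMIs that were Trbc1, in steps of 10 percent, for cells with at least 5 such UMIs, in 1467 T-like and 167 NK-like cells. T-like cells peaked in the lowest step (30.1% of cells) with a broad second rise around the middle, and NK-like cells in the highest step (40.7%).

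Single cells showed how the beta genes combined. Among T-like cells, 62.9% had both Trbc1 and Trbc2, 32.4% had Trbc2 alone, 2.54% had Trbc1 alone and 2.16% had neither. Among the 1467 T-like cells with at least 5 beta UMIs, 558 (38.0%) had under 20% Trbc1, 780 (53.2%) lay between, and 129 (8.79%) had over 80% Trbc1. In NK-like cells 76 of 167 (45.5%) were over 80% Trbc1 and 9 (5.39%) under 20%. Of all NK-like cells, 52.9% had Trbc1 alone, 34.1% both, 4.87% Trbc2 alone and 8.19% neither.

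Trbc2 and Trac differed little across T-like cells with different amounts of Trbc1. In 625 T-like cells without Trbc1, Trbc2 was at 1460 CPM (1421 to 1501). In 904 cells with at least 3 Trbc1 UMIs it was at 1327 CPM (1299 to 1356), although these cells also held Trbc1 at 1819 CPM. Trac was at 419 CPM in the former (397 to 441) and 426 CPM in the latter (410 to 443). All beta UMIs together were at 1591 CPM in cells without Trbc1 and 3426 CPM in those with at least 3. The cells were split by their own Trbc1 count, which is part of this total, so a higher total is built in. Their median totals were 4758 and 5484.5 UMIs. Joint UMIs were at 131 CPM without Trbc1 and 279 CPM with at least 3 UMIs of it. In NK-like cells Trbc2 was likewise at 326 CPM (249 to 419) in 59 cells without Trbc1 and 291 CPM (261 to 323) in 223 cells with at least 3 UMIs of it. Trac was found in none of those 59 NK-like cells, and all 41 NK-like cells with Trac had Trbc1. The 59 cells had a median total of 2758 UMIs, against 4516 in those with at least 3 Trbc1 UMIs. Their Trac interval reached 20.0 CPM, above the 16.4 CPM (7.86 to 30.1) of NK-like cells with 1 or 2 Trbc1 UMIs.

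**Figure D4:**
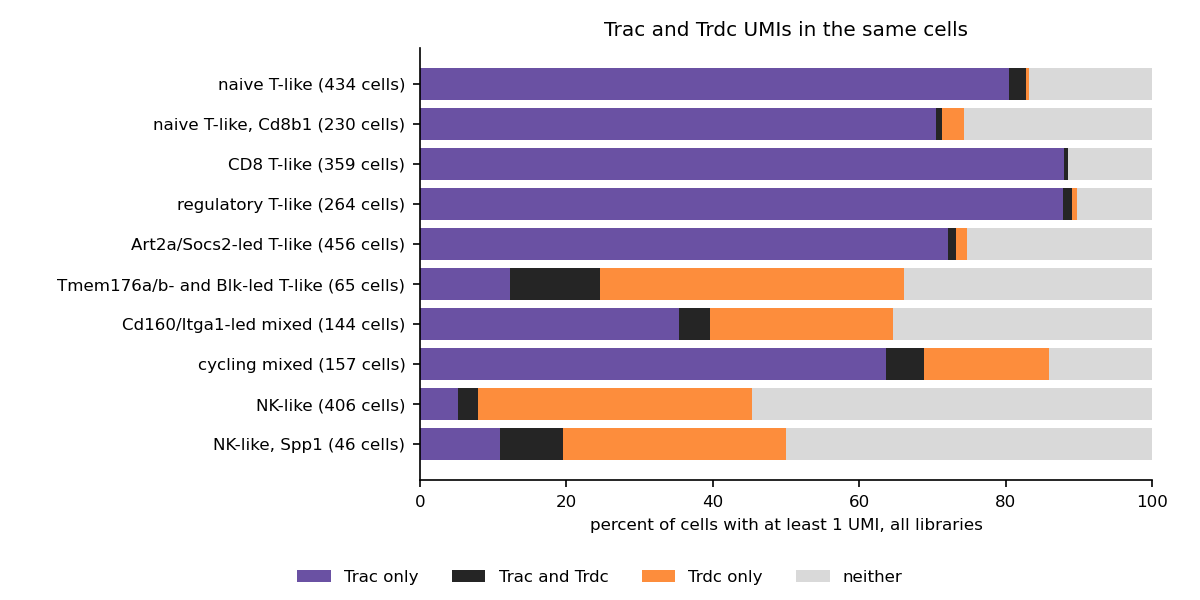
Percent of cells with Trac alone, Trac and Trdc, Trdc alone or neither, stacked to 100 percent, by T-like, mixed and NK-like sub-cluster, all libraries together. Trac alone was found in 316 of 359 CD8 T-like cells, and Trdc alone in 41.5% of the Tmem176a/b and Blk-led T-like cells.

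Trac and Trdc tended to be found in different T-like cells. Trdc had a UMI in 30 of 1426 T-like cells with Trac (2.10%, 1.42 to 2.99%) and in 45 of 382 without it (11.8%, 8.72 to 15.4%). Mixed cells had Trdc in 8.48% with Trac and 46.3% without. The mixed sub-clusters pool cells with Cd3e and cells with Ncr1, which were not separated here. NK-like cells did not show the order of T-like cells. They had Trdc in 36.6% of 41 cells with Trac (22.1 to 53.1%) and 40.4% of 411 cells without (35.6 to 45.3%). In the Blk-led sub-cluster Trdc was in 8 of 16 cells with Trac and in 27 of 49 without. Over all T-like cells, 337 (18.6%) had neither gene.

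The 45 T-like cells with Trdc and no Trac had the CD3 chains of T cells but few coreceptors. Cd3e was in 88.9% and Cd3g in 95.6% of them, none had Cd4 and 1 had Cd8a. Blk, a kinase of B cells and of some gamma-delta T cells, was in 37.8%, Maf, a transcription factor, in 46.7% and Cd5, a negative regulator of receptor signaling, in 11.1%. Among the 1396 T-like cells with Trac and no Trdc, Cd4 was in 26.6%, Cd8a in 26.0%, Blk in 0.501%, Maf in 22.2% and Cd5 in 33.0%. The cells with Trdc alone also carried beta transcripts, Trbc1 in 64.4% and Trbc2 in 84.4%. The 166 NK-like cells with Trdc and no Trac had Ncr1 in 88.6%, Gzma, a granule protease, in 97.6%, and no UMI of Cd3e, Blk or Cd5. All NK-like cells together had Ncr1 in 87.6%, Gzma in 94.0% and Cd3e in 1.11%. The Cd3e and Ncr1 shares of T-like and NK-like cells follow in part from how those groups were called.

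Gamma constant genes, whose chains pair with delta chains, were held only by the adjacent tissue matrix, as Trgc1, Trgc2 and Trgc4, with 1 variable gene, Trgv2. In that tissue Trgc1 was in 10 of 11 T-like cells with Trdc and no Trac, Trgc2 and Trgv2 in 6 each and Trgc4 in 7. Among 225 T-like cells with Trac and no Trdc, Trgc1 was in 38 (16.9%) and Trgc4 in 40 (17.8%). The 12 NK-like cells with Trdc and no Trac had no UMI of Trgc1, Trgc2 or Trgv2, and 2 had Trgc4. T-like and NK-like cells with Trdc therefore differed in the gamma genes beside it, over few cells. The Art2a and Socs2-led sub-cluster had Trgc1 in 43.5% of 62 Ctrl cells and 46.2% of 26 Tim3-KD cells, while naive T-like cells had it in 1 of 37 and 0 of 42, and 0 of 42 allows a share of cells with a UMI of up to 7.14% (3 cells). Trgc1 was also in 2 of 2 and 8 of 8 cells of the Blk-led and in 11 of 24 and 7 of 14 cells of the Cd160 and Itga1-led sub-cluster (Ctrl and Tim3-KD).

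Tim3-KD was compared with Ctrl at each site to ask how these transcripts differed when the tumor cells carried less TIM3. Over all cells of adjacent tissue, Trac stood at 26.0 (Ctrl) and 67.3 CPM (Tim3-KD), Trbc1 at 66.4 and 193, Trbc2 at 81.3 and 238, and Trdc at 5.68 and 30.1. On the log2 scale these differences were 1.37 (1.21 to 1.54), 1.54 (1.44 to 1.64), 1.55 (1.46 to 1.64) and, from counts that are lower bounds, 2.40. All 4 members were more than 2-fold higher by these sums, where 34.0% of 4485 genes were (9.32% were over 2-fold lower). Only Trdc stayed so when scaled by the trimmed mean over genes (0.78, 0.94, 0.95 and 1.81 for Trac, Trbc1, Trbc2 and Trdc) or taken as a mean over cells (0.29, 0.29, 0.46 and 1.71). In micrometastasis Trac was at 21.7 and 10.3 CPM, Trbc1 at 50.3 and 38.5, Trbc2 at 74.7 and 42.4, and Trdc at 3.97 and 0.750. Trac, at -1.07 (-1.20 to -0.95), and Trdc, at -2.40 (-2.84 to -1.98), were over 2-fold lower, 2 of 4 members where 18.1% of genes were (0.749% were higher), and Trbc1 (-0.39) and Trbc2 (-0.82) were not. Trac was under 2-fold lower there with the trimmed mean (-0.63) and as a mean over cells (-0.57). In macrometastasis Trdc, at 5.91 and 2.73 CPM (-1.12, -1.40 to -0.83), was the 1 member over 2-fold lower, where 10.6% of genes were (2.27% were higher), and it was under 2-fold lower with the trimmed mean (-0.85) and as a mean over cells (-0.94). Trac there was at 28.9 and 29.8 CPM (0.04, -0.06 to 0.15), with an interval that includes no difference. It moved above that interval with the trimmed mean (0.31) and as a mean over cells (0.53).

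These sums over all cells move with the makeup of the sort, and fewer T cells cannot be told apart in them from less receptor RNA per cell. From adjacent liver through micrometastasis to macrometastasis, T-like cells were 8.10%, 7.25% and 7.88% of Ctrl cells against 19.9%, 5.76% and 9.11% of Tim3-KD cells. Neutrophil-like cells were 50.7%, 39.5% and 36.0% of Ctrl cells against 3.51%, 59.5% and 41.5%. The median over all genes was itself 0.59, -0.43 and -0.26 on the log2 scale at the 3 sites. Scaled by the trimmed mean over genes, Trbc1 turned to 0.053 in micrometastasis and 0.096 in macrometastasis, and Trbc2 to 0.022 in macrometastasis. As a mean over cells, Trbc1 and Trbc2 in macrometastasis turned to 0.20 and 0.19.

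**Figure D5:**
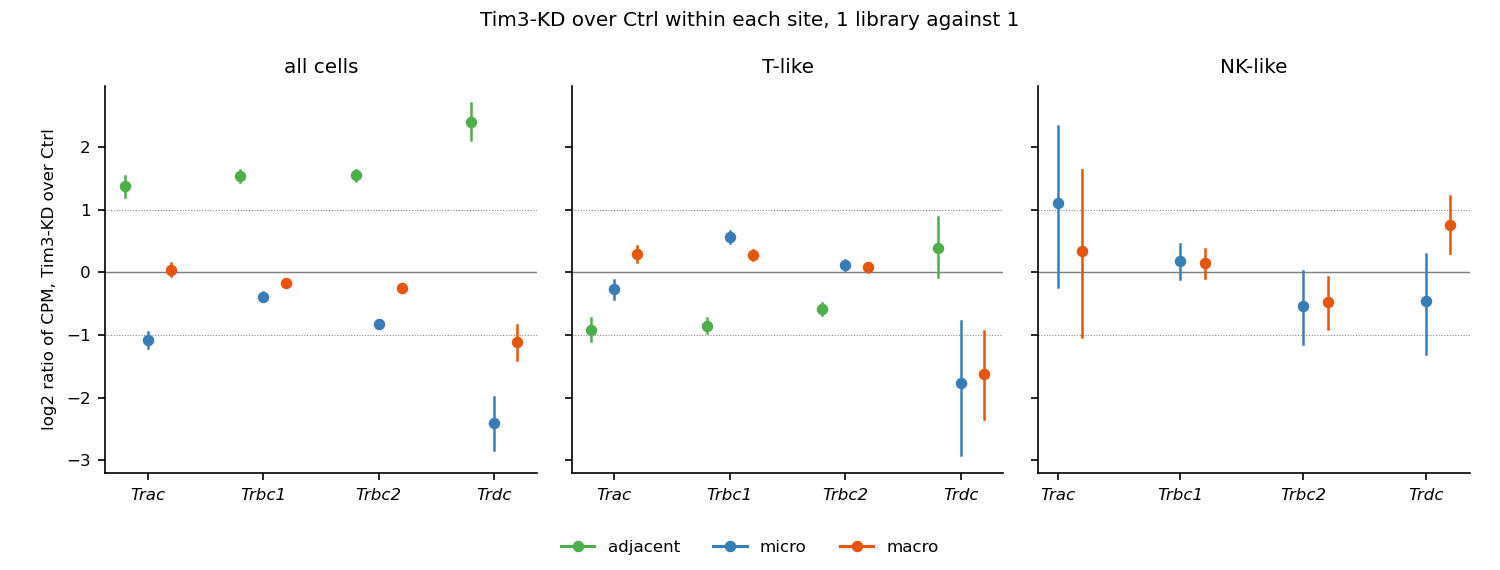
Tim3-KD over Ctrl difference on the log2 scale for each gene and site, over all cells, within T-like and within NK-like cells, with 95% counting intervals and a line at 0. Over all cells of adjacent tissue all 4 genes lay above 0, and within T-like cells Trac, Trbc1 and Trbc2 lay below it.

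Within T-like cells of adjacent tissue the alpha and beta genes were lower in Tim3-KD, with differences on the log2 scale of -0.91 for Trac (-1.09 to -0.73), -0.85 for Trbc1 (-0.97 to -0.73) and -0.59 for Trbc2 (-0.69 to -0.48). None passed 2-fold, where 6.82% of genes were higher and 15.9% lower, and the median of all genes was -0.33. The Art2a and Socs2-led cells made up 42.5% (Ctrl) and 24.1% (Tim3-KD) of T-like cells there, and naive T-like cells 25.3% and 38.9%. Inside the naive T-like cells the differences were smaller, -0.39 for Trac (-0.73 to -0.03), -0.15 for Trbc1 and -0.06 for Trbc2, and inside the Art2a and Socs2-led cells they were -1.21, -0.71 and -0.27. Gating single cells on CD3 genes in place of clusters turned all 3 to 1.79, 2.00 and 1.95, in a gate of which 43.3% of cells were neutrophil-like, and without Cd3d in the gate none turned.

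Within T-like cells of micrometastasis Trbc1 was higher in Tim3-KD by 0.57 on the log2 scale (0.48 to 0.67), Trbc2 by 0.11 (0.03 to 0.19), and Trac was at -0.27 (-0.42 to -0.11). CD8 T-like cells were 20.8% of T-like cells in Ctrl and 39.5% with Tim3-KD. In them Trbc1 stood at 1116 and 1846 CPM (0.73, 0.57 to 0.88), Trac at 743 and 459 CPM, and Trbc2 at 2382 and 2180 CPM. In the naive and Art2a and Socs2-led cells of this site the Trbc1 differences were -0.09 and -0.11, both with intervals that include 0, and in regulatory T-like cells Trbc1 was at 0.35 (0.04 to 0.65). Compared within sub-clusters, Trbc1 over T-like cells of this site fell to 0.34, below its counting interval, and Trbc2 turned to -0.10. Trbc2 also turned to -0.16 in single cells gated without Cd3d, and the gate with Cd3d turned Trbc1 to -0.40 and Trbc2 to -1.07. In macrometastasis T-like cells Trac was at 0.30 (0.17 to 0.42), Trbc1 at 0.28 (0.21 to 0.36) and Trbc2 at 0.08 (0.01 to 0.15).

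Trdc was the 1 member over 2-fold different within T-like cells of both metastatic sites. In micrometastasis it had 48 (Ctrl) and 10 UMIs (Tim3-KD) (26.2 and 7.66 CPM, log2 -1.77, -2.92 to -0.77), where 6.78% of genes were over 2-fold lower and 3.23% higher. In macrometastasis it had 62 and 26 UMIs (26.2 and 8.51 CPM, log2 -1.62, -2.34 to -0.94), where 2.42% of genes were lower and 4.52% higher. Trdc was at its maximum score in 11 and 3 of the micrometastasis cells and 6 and 2 of the macrometastasis cells, and the shares of T-like cells with Trdc, which do not depend on it, were 5.14% and 2.03% in the former and 5.68% and 2.20% in the latter. The Blk-led sub-cluster was 24 cells of micrometastasis Ctrl and 3 of Tim3-KD. With cells under 3000 UMIs left out, the micrometastasis difference in Trdc was -3.26, and compared within sub-clusters it was -0.28. In macrometastasis the difference was -1.43 within sub-clusters, and it was under 2-fold in single cells gated on CD3 genes, at -0.76 with and -0.95 without Cd3d. The Blk-led sub-cluster had 15 and 13 cells there, with Trdc in 10 and 2 of them. In adjacent tissue T-like Trdc was at 52.4 and 68.8 CPM (0.39, -0.08 to 0.88), which changed sign to -0.46 within sub-clusters and to -0.33 with receptor features used for clustering, and 3 of the 5 Ctrl cells with Trdc held 82.3% of its UMIs.

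NK-like cells were compared in the metastases only, since adjacent Tim3-KD held 11. In micrometastasis (165 and 26 cells) Trac passed 2-fold at 1.11 on the log2 scale from 18 and 9 UMIs, where 4.51% of genes were over 2-fold higher and 26.1% lower, and the intervals of all 4 members included 0. The Spp1 and Klra7-led sub-cluster was 7.27% of these NK-like cells in Ctrl and 65.4% with Tim3-KD, and within sub-clusters the Trbc2 difference went from -0.54 to -1.18. In macrometastasis (164 and 59 cells) Trdc was at 145 and 246 CPM, 0.76 on the log2 scale (0.30 to 1.21), and in 36.0% (28.6 to 43.8%) and 57.6% (44.1 to 70.4%) of cells. Single cells gated on Ncr1 or Klrb1c and without a UMI of Cd3e, Cd3d or Cd3g, in place of clusters, gave 0.030 for Trdc. Over all sites 13.7% of the cells in that gate were mixed cells. Trbc2 was at 306 and 219 CPM (-0.48, -0.90 to -0.07), which turned to 0.17 with the Cd160 and Itga1-led cells added, and Trbc1 at 710 and 786 CPM (0.15, -0.08 to 0.37). No member passed 2-fold there, where 6.20% of genes were higher and 11.3% lower. At this site Trdc thus stood lower in Tim3-KD within T-like cells and higher within NK-like cells, and the difference between the 2 was not tested.

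Other genes of the receptor were read beside the members in T-like cells, as lists of measured genes with at least 20 UMIs. None of the 4 CD3 complex genes and none of the 3 coreceptors (Cd4, Cd8a and Cd8b1) passed 2-fold at any site. The medians of the CD3 genes were -0.29, -0.02 and 0.18 on the log2 scale at the same 3 sites, beside -0.33, -0.07 and 0.06 over all genes. Cd3g stood at 1113 and 745 CPM (adjacent), 1245 and 1502 CPM (micrometastasis) and 849 and 1035 CPM (macrometastasis). Over all genes of T-like cells, 6.82% were over 2-fold higher and 15.9% lower in adjacent liver, 3.23% and 6.78% in micrometastasis, and 4.52% and 2.42% in macrometastasis. Of the proximal signaling genes, Nfatc2 (31.2 and 14.9 CPM) was over 2-fold lower among 19 in adjacent liver, Tec (21 and 6 UMIs) among 15 in micrometastasis, and none among 18 in macrometastasis, shares at or below those over all genes. Of 9 costimulation and adhesion genes, Ctla4 (182 and 74.5 CPM) and Cd6 (149 and 66.0 CPM) were lower in adjacent tissue and Cd5 (116 and 55.9 CPM) in micrometastasis. Of the gamma-delta programme, 1 of 6 genes was higher in adjacent liver (Blk, 0 and 25 UMIs) while Trgc1, Trgc2, Trgc4, Trgv2 and Maf did not pass, 1 of 2 was lower in micrometastasis (Blk, 18 and 2 UMIs), and 0 of 1 passed in macrometastasis. NK genes differed in T-like cells too, 4 of 5 lower in adjacent tissue (Klre1, Klrd1, Klrk1 and Prf1) and 2 of 6 higher in micrometastasis, where Gzma was at 244 and 1407 CPM and Prf1 at 98.1 and 272 CPM. In macrometastasis 1 of 6 was higher (Klre1, 18.2 and 40.9 CPM).

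The genes whose levels ran most like each member were sought over sums by cell class and library, of which the 3 matrices gave 14, 26 and 27. These sums share libraries and classes and the correlations are descriptions only. For Trac the nearest genes apart from the other members were Scg5 (Pearson r = 0.986) and Trat1 (0.979) in adjacent tissue, Cd3g (0.964) in micrometastasis and Cd3g (0.993) in macrometastasis. For Trbc2 they were Trgc4 (0.993) and Cd3g (0.992), Cd3g (0.975) and Thy1 (0.977) at the 3 sites. For Trbc1 they were Skap1 (0.995), Zap70 (0.965) and Skap1 (0.965), both of them T cell signaling genes. For Trdc they were Cd160 (0.975) and Cd96 (0.971) in adjacent tissue, where 6.98% of its UMIs were in NK-like and 46.0% in mixed cells, and NK genes at the other sites, Ncr1 (0.973) and Klre1 (0.965) in micrometastasis, and Eomes (0.979) and Klre1 (0.970) in macrometastasis.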

How the data were processed

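CD45+ cells of 6 liver libraries were prepared with 10x Next GEM 3′ v3.1 chemistry and sequenced by the authors. Per the submitters' processing notes and the study's methods, reads were trimmed with Trim Galore 0.4.3 and aligned to GRCm38 with STAR 2.7.7a, and UMIs over exons and introns were counted with Ensembl 102. Cells were kept by totals, genes and mitochondrial share, and cells labeled as doublets with scrublet at a score of 0.15 were removed, while by a doublet score computed here 3.60 to 12.2% of the deposited cells per library still lay over 0.15. The deposited matrices hold scores that the authors scaled per gene within a site, regressed on the total UMIs of a cell and cut at 10, and not counts. The scores were inverted to UMIs, and 99.9997% (adjacent), 99.9999% (micrometastasis) and 99.997% (macrometastasis) of values came within 0.05 of a whole number. On simulated data, 100% of detected values were returned exactly for 4456 of 4486 genes, and 98.8% over all genes of simulated adjacent tissue. The design had foreseen counts, and since each group is 1 library no count model was fitted and no p-value is given.

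Cells were clustered (Python 3.11.15, numpy 2.4.6, scanpy 1.11.5, leidenalg 0.10.2, 30 components, 15 neighbors, resolution 1). Levels carry exact Poisson, shares exact Clopper-Pearson and ratios conditional binomial intervals (scipy 1.17.1). Ratios were taken where both libraries held at least 20 cells, and a 2-fold difference needed at least 20 UMIs over both, with 0.5 added to each sum. Named genes were the 4 members, the listed receptor genes with their values, and the 5 genes per member with the highest Pearson correlation of log2(CPM + 10). The nearest of these are printed. Members and lists were chosen with earlier results of these data known. Genomic sequence is GRCm38 with GENCODE annotation. None of the 4 members was in the promoter table. Alternatives covered scaling, cell filters, thinning to 1500 or 3000 UMIs, cell gates and clustering, and those on gates without Cd3d, on values within sub-clusters and on added sub-clusters were chosen after seeing the data.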

Additional observations from a re-analysis of the deposited data

Results flagged for a closer look

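Several Tim3-KD over Ctrl differences pointed one way at one site and the other way at another, beyond their counting intervals. Over all cells Trac was at 1.37 on the log2 scale in adjacent liver and -1.07 in micrometastasis. Trbc1 was at 1.54 in adjacent liver, -0.39 in micrometastasis and -0.17 in macrometastasis. Trbc2 was at 1.55, -0.82 and -0.24 at the same sites, and Trdc at 2.40, -2.40 and -1.12. Within T-like cells the alpha and beta genes were lower with Tim3-KD in adjacent liver. Trac was at -0.91 in adjacent liver, -0.27 in micrometastasis and 0.30 in macrometastasis, Trbc1 at -0.85, 0.57 and 0.28, and Trbc2 at -0.59, 0.11 and 0.083. Scaled by the trimmed mean over genes, the values over all cells turned to 0.053 for Trbc1 in micrometastasis and to 0.096 for Trbc1 and 0.022 for Trbc2 in macrometastasis, and as a mean over cells those of macrometastasis turned to 0.20 and 0.19. Single cells gated on CD3 genes turned T-like Trac, Trbc1 and Trbc2 in adjacent liver to 1.79, 2.00 and 1.95 and Trbc1 and Trbc2 in micrometastasis to -0.40 and -1.07. T-like Trbc2 in micrometastasis also turned to -0.10 within sub-clusters and to -0.16 in the gate without Cd3d. With 1 library per group, none of these differences between sites was tested.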

How the results depend on the processing

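No paired analysis was possible because each group was 1 library and the labels pair no replicates. Of 322 values recomputed under an alternative, 222 changed by no more than the counting interval, 87 moved further and 13 turned, which was counted only where the interval of the reported value left out 0, and the cause was not tested. All differences below are Tim3-KD over Ctrl on the log2 scale. Over all cells, the mean over cells gave for adjacent liver Trac 0.29, Trbc1 0.29, Trbc2 0.46 and Trdc 1.71, for micrometastasis Trac -0.57, Trbc1 -0.061 and Trbc2 -0.28, and for macrometastasis Trac 0.53, Trbc1 0.20 and Trbc2 0.19, the last pair turned. Trimmed-mean scaling gave for adjacent liver 0.78, 0.94, 0.95 and 1.81 in the order Trac, Trbc1, Trbc2 and Trdc, for micrometastasis -0.63, 0.053 (turned), -0.38 and -1.96, and for macrometastasis Trac 0.31, Trbc1 0.096 and Trbc2 0.022, the last pair turned. Leaving out doublet scores over 0.15 gave adjacent Trbc1 1.66 and Trbc2 1.72, and leaving out cells under 3000 UMIs gave micrometastasis Trbc2 -0.90. In T-like cells, trimmed-mean scaling gave adjacent Trac -0.58, Trbc1 -0.52 and Trbc2 -0.26, the mean over cells adjacent Trbc1 -0.98, and cells under 3000 UMIs left out micrometastasis Trdc -3.26. Clusters made with receptor features gave adjacent Trbc1 -0.71, Trbc2 -0.70 and Trdc -0.33 (from 0.39, whose interval includes 0) and micrometastasis Trbc1 0.71 and Trbc2 0.024. Gating single cells on Cd3e, Cd3d and Cd3g turned adjacent Trac (1.79), Trbc1 (2.00) and Trbc2 (1.95) and micrometastasis Trbc1 (-0.40) and Trbc2 (-1.07), and gave adjacent Trdc 3.35, micrometastasis Trac -1.44 and macrometastasis Trbc1 0.40, Trbc2 0.20 and Trdc -0.76. Of the 3894 cells in that gate 43.3% were neutrophil-like, with Cd3d UMIs. The gate without Cd3d gave adjacent Trbc1 -0.63 and Trbc2 -0.69 and micrometastasis Trac -0.53 and Trbc2 -0.16 (turned). Within sub-clusters, adjacent Trbc1 was -0.64, Trbc2 -0.38 and Trdc -0.46 (again below 0), and micrometastasis Trbc1 0.34, Trbc2 -0.10 (turned) and Trdc -0.28. Adding sub-clusters led by other classes gave Trbc1 0.47 in micrometastasis and 0.19 in macrometastasis. In NK-like cells, micrometastasis Trbc2 was -1.18 within sub-clusters, the gate gave macrometastasis Trdc 0.030 and Trbc2 -0.94 and left too few cells in micrometastasis, and adding the Cd160 and Itga1-led sub-cluster turned macrometastasis Trbc2 to 0.17. As a mean over cells, T-like Trac was 327 CPM in adjacent Tim3-KD and Trbc1 1338 CPM in micrometastasis Tim3-KD. Shares move with depth by construction, and thinned to 3000 UMIs or not thinned they were 64.8% and 78.9% (Trac), 59.5% and 65.4% (Trbc1), 89.9% and 95.3% (Trbc2) and 3.53% and 4.15% (Trdc) in T-like cells and 6.56% and 9.07%, 84.9% and 86.9%, 38.7% and 38.9%, and 36.1% and 40.0% in NK-like cells. The T-like Trbc1 share, with libraries ordered by site and Ctrl before Tim3-KD, was 42.8, 43.7, 35.1, 46.3, 40.2 and 43.6% in the gate, 42.7, 43.7, 35.2, 46.3, 40.4 and 43.8% in the gate without Cd3d, and the share of cells with more Trbc1 was 41.3, 33.0, 31.4, 39.9, 33.5 and 40.6%. With at least 2 UMIs of each gene, both beta genes were in 51.2% of T-like and 18.6% of NK-like cells, and Trac with Trdc in 0.774% and 0.442%. Resolution 2 and leaving out cells at the maximum score moved no value. Trdc rested on 10 to 97 UMIs per library in T-like cells.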

Other observations

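The 171 cells of T and NK clusters that were led by B cell or by endothelial and Kupffer genes still carried the members at T-like shares, with Trbc2 in 91.2%, Trac in 74.9%, Trbc1 in 64.9% and Trdc in 4.09% of cells, and Cd3e was in 80.8% of the 146 cells led by B cell genes. Of these cells 23.5 to 50% per library had a doublet score over 0.15, against 0 to 4.79% of T-like cells, and the part of doublets in these shares was not tested. They were kept out of the T-like sums.

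Among the 63 mixed cells with Trdc and no Trac, Ncr1 was in 76.2% and Cd3e in 42.9%. In adjacent liver, 10 such cells held Trgc1 in 7, Trgc2 in 7, Trgc4 in 4 and Trgv2 in 6. Among the 30 T-like cells with both Trac and Trdc, Cd4 was in 8, Cd8a in 4 and Blk in 6.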
